A study of Mus musculus with 6 samples.

Results

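The genes described here are the machinery and the receptors of autophagy, 41 mouse genes taken by symbol from a fixed list. All 41 were found among the 50600 genes counted, and all 41 passed the filter on low counts that left 16938 genes for testing. They were measured in cortical thymic epithelial cells (cTECs), the epithelium of the thymic cortex on which developing T cells are positively selected. PolyA RNA was sequenced from primary cTECs of mice aged 8 to 10 weeks, in 3 libraries from Psmb11-/- mice (KO, replicates A to C) and 3 from Psmb11+/+ mice (WT, replicates A to C). Both genotypes carry the strain label B6.B6CB-Psmb11tm1Smta and differ in the labels only by the Psmb11 allele. Psmb11 encodes beta5t, the catalytic subunit that defines the thymoproteasome, a form of the proteasome made by cTECs. The labels do not say whether the 3 libraries of a genotype came from separate mice or from pools, so each p-value below measures only the spread between these samples.

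In autophagy a membrane sac grows around cytoplasm, closes into an autophagosome and fuses with a lysosome, where the content is degraded. The ULK kinase complex starts the process, a class III PI3 kinase marks the membrane with lipid, ATG9 and lipid transfer proteins supply it, and a pair of ubiquitin-like conjugation systems attaches ATG8 proteins to it. ATG8 proteins, the LC3 and GABARAP subfamilies, hold receptors that bring cargo, and tethers join the finished autophagosome to the lysosome. In cTECs autophagy is known for running constitutively and for bringing intracellular proteins into the MHC class II pathway that serves positive selection.

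The promoters below belong to 4 members whose RNA was lower in KO, Optn, Calcoco1, Gabarapl1 and Tecpr1, and to Map1lc3b, an ATG8 gene that was not called. They are shown so that members that moved in the same direction can be read next to a member of the same pathway that did not pass the test. Each is the stretch of up to 250 bases before the RefSeq start that also lies upstream of the gene's start in GENCODE M21, 5′ to 3′ on the gene's strand, in build GRCm38.p6 (sequences from RefSeq). Capitals mark the GC box GGGCGG and the CCAAT box, on either strand, where the letters occur. The Optn stretch is chr2:5064118-5064367 on the minus strand and holds 1 GC box. For Optn the bases just after the RefSeq start were not found in a GENCODE M21 transcript, unlike those of the other genes shown. In M21 the Optn gene starts at 5064051.
Optn: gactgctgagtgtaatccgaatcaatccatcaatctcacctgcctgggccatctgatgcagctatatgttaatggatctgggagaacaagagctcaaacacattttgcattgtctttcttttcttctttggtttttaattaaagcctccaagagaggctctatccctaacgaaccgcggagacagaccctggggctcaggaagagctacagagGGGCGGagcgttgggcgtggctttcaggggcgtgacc
The Calcoco1 stretch is chr15:102722179-102722428 on the minus strand and holds 3 GC boxes, the first 2 of them overlapping by 1 base.
Calcoco1: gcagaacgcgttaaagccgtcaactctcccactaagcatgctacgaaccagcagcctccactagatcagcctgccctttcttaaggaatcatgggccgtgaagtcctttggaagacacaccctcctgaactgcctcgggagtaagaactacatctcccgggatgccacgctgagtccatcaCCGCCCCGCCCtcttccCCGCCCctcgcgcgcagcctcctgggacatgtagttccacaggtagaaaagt
The Gabarapl1 stretch is chr6:129532942-129533159 on the plus strand, 218 bases long, and holds 1 GC box.
Gabarapl1: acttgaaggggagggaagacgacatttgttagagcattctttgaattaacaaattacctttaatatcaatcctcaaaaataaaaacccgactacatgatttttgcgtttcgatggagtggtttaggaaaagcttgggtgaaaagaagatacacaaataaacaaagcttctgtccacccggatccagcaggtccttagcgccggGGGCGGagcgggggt
The Tecpr1 stretch is chr5:144223616-144223865 on the minus strand and holds 1 CCAAT box.
Tecpr1: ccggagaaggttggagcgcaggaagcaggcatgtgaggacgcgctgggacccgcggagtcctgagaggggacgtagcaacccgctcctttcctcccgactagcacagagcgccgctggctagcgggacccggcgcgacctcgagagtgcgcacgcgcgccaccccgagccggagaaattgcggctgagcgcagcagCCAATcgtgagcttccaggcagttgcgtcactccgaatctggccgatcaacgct
The Map1lc3b stretch is chr8:121590188-121590360 on the plus strand, 173 bases long, and holds neither, although the full window described next holds a GC box for Map1lc3b and for Tecpr1.
Map1lc3b: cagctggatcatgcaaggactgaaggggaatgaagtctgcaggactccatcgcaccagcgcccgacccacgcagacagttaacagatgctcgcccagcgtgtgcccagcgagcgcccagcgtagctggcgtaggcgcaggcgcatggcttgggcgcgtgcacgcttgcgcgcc
Over windows of 250 bases before to 50 after the RefSeq start, 34 of the 41 genes had a promoter in the table. Shares of the 34 count genes with a match in any of their promoters, while the shares set beside them count promoters. The GC box, searched on both strands, was in 23 of the 34 (67.6%), and in 59.1% of 15090 promoters of genes tested. CCAAT was in 10 of the 34 (29.4%), against 37.2% of those promoters. The E-box CACGTG, bound by many basic helix-loop-helix factors, was in the promoters of Atg14, Atg3, Atg5 and Atg7 (11.8%, against 9.32%). Its longer form TCACGTGA, the core of the CLEAR element of lysosomal genes, was in Atg3 alone, against 1.68% of promoters of genes tested. The antioxidant response core TGACNNNGC was in 5 of the 34 (14.7%, against 14.1%), which were Atg13, Map1lc3b, Tax1bp1, Ulk2 and Vmp1. A match is a run of letters in these windows and not a shown binding site, and the E-box lies within every TCACGTGA match.

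Psmb11 itself separated the genotypes as the labels say. In KO it had 67, 36 and 41 raw counts and in WT 8293, 9297 and 10027, with values here and below always in the order A, B, C. The gene lies at chromosome 14, 54621433 to 54629556 (GRCm38). Gene counts per library lay between 34265035 and 39224292, and a member had 437 to 15626 counts in a library. Levels of 1 gene across libraries are given as CPM, which corrects raw counts for library size. The list of cTEC markers summed, without Psmb11, to 7097 to 7856 CPM in KO and 10640 to 10816 in WT, and of its 16 genes, Psmb11 included, 13 were lower and 2 (Pax9 and Epcam) higher in KO. Summed mTEC markers, those of the medullary epithelium, were 6173 to 6533 CPM in KO and 4849 to 5422 in WT, with 9 of 12 genes higher. Summed tuft cell markers were 173 to 222 CPM against 112 to 121, with 7 of 10 tested genes higher. Markers of fibroblasts and pericytes summed to 1482 to 1596 CPM against 1088 to 1226 (8 of 12 higher), and those of dendritic cells and macrophages to 63.0 to 71.2 against 33.3 to 37.2 (6 of 11 tested genes higher). Thymocyte markers summed to 95.7 CPM in KO replicate A and to between 48.6 and 60.4 in the other 5 libraries, and 1 of 13 tested was higher. Endothelial markers summed to 22.3 to 59.9 CPM in KO and 19.3 to 46.0 in WT, and B cell markers to 19.4 to 25.2 and 19.2 to 21.6, with none called by edgeR or DESeq2 of 9 and 3 tested (1 endothelial gene had an unadjusted p below 0.05). No marker was at 0 in every library. The sums of cTEC, mTEC, tuft cell, fibroblast and pericyte, and dendritic cell and macrophage markers separated by genotype. Those of thymocyte, endothelial and B cell markers overlapped. The part of any of these sums in the changes of the autophagy genes was not tested. In such libraries, fewer cells of a type and less RNA per cell cannot be told apart. Without KO replicate A, the library with the highest thymocyte sum, 5 autophagy genes were lower and 0 higher by edgeR, and 2 higher at an unadjusted p below 0.05.

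Of the 41 autophagy genes, 7 were lower and 2 were higher in KO, and 32 were not called. A gene was called at an adjusted p below 0.05 in edgeR's quasi-likelihood test, with Benjamini-Hochberg adjustment over all 16938 genes tested. The share of all genes called by that rule was 23%, with 12.3% higher and 10.7% lower, so the number of autophagy genes called (22%) was near the background. The 7 lower genes were 17.1% of the 41. Among the 8977 genes within the same range of mean CPM as the 41, 28.1% were called, 16.9% lower and 11.2% higher, so the share of lower genes was also near that of genes of similar abundance. The median log2 fold change (KO over WT) was -0.02 over the 41 genes, -0.02 over the genes of similar abundance and -0.0008 over all genes tested. KO and WT libraries did not overlap in CPM for 13 of the 41, 10 of them lower and 3 higher, while 39.3% of all genes did not overlap. Among the 8977 genes of similar abundance, 4055 did not overlap, 2516 of them lower and 1539 higher.

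The changes were small. The lowest log2 fold change was -0.43, in Optn, and the highest 0.12, in Atg4d, which was not called. For the 32 genes not called, the 95% intervals of the log2 fold change lay between -0.25 and 0.27. Changes of up to 16.0% lower or 20.97% higher were therefore within reach of at least one of those intervals, and a missed call does not show that a gene was the same. The coefficient of variation of CPM between libraries of a genotype had a median of 3.49% in KO and 2.85% in WT over the 41 genes.

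**Figure D1:**
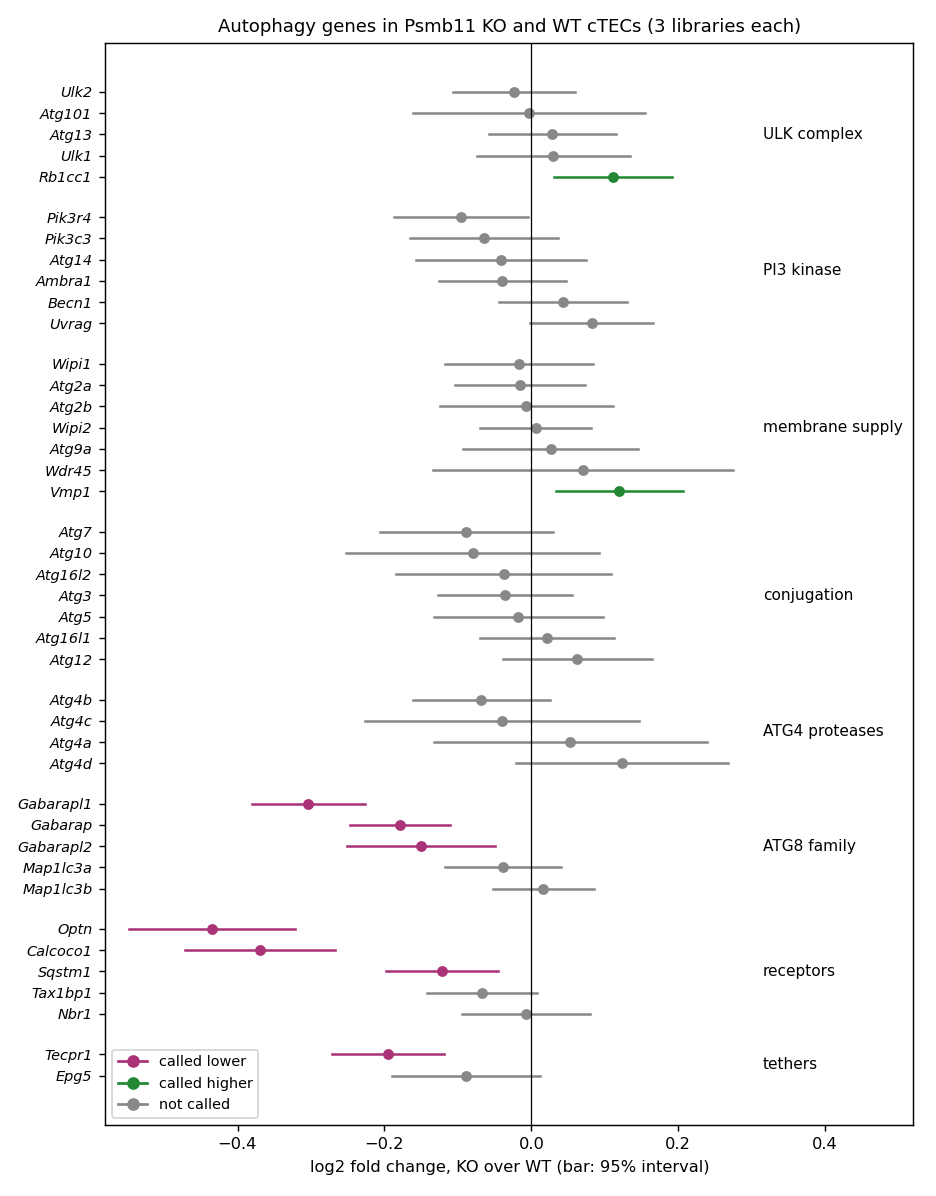
Log2 fold change of each of the 41 autophagy genes, KO over WT (x axis), by role (y axis), with 95% intervals from edgeR's quasi-likelihood test on 3 libraries per genotype. The 7 genes called lower are ATG8 genes of the GABARAP subfamily, receptors and a tether, and the 2 called higher are Rb1cc1 and Vmp1.

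The 41 genes spanned a wide range of RNA levels in WT cTECs. Levels of different genes are compared in TPM, a transcript abundance that is scaled for length. Mean WT TPM ran from 10.2 for Atg2b to 428 for Gabarap, with a median of 31.7 over the 41. All but 4 (37 of 41) were above the median gene tested, and 9 were above the 90th percentile. The order began with Gabarap (428), Sqstm1 (418), Map1lc3b (339), Calcoco1 (176), Tax1bp1 (174), Map1lc3a (158), Becn1 (140), Gabarapl2 (112) and Gabarapl1 (99.8). Calcoco1 and Tax1bp1 did not differ beyond their spread in WT, since Calcoco1 ranged from 163 to 189 TPM and Tax1bp1 from 173 to 176. The 5 ATG8 genes made up 36.6% of the summed WT TPM of the 41 genes and the 5 receptors 28.7%, while the 2 tethers made up 1.70%. The summed TPM of all 41 was 3008 ± 32.3 in KO and 3107 ± 4.06 in WT (SD, n = 3), a difference of -3.18%, and the genotypes did not overlap.

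The ULK complex, which receives the nutrient signals of mTORC1 and AMPK, held 1 higher gene among 5. Rb1cc1, the scaffold subunit also called FIP200, was at 82.5, 85.7 and 84.4 CPM in KO and 75.8, 79.4 and 78.6 in WT. Each KO library was above each WT library in CPM, but the genotypes overlapped in TPM (37.9 to 40.4 in KO, 30.8 to 38.8 in WT). The log2 fold change was 0.11 ± 0.04 (SE), a fold of 1.08 with an adjusted p of 0.0476 in edgeR's test. The call was lost whichever single library was left out (edgeR adjusted p 0.05 to 0.174) and under 13 of all 16 alternative analyses. Ulk1, the kinase and the most abundant of the complex, was not called at 170, 165 and 189 CPM in KO and 171, 175 and 167 in WT. KO replicate C was the highest of the 6 and the genotypes overlapped. Ulk2, the related kinase, and the subunits Atg13 and Atg101 had log2 fold changes of -0.02, 0.03 and -0.003.

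The class III PI3 kinase complexes had no called gene among 6 by edgeR or by DESeq2, and 1 gene with an unadjusted p below 0.05. Becn1, which encodes Beclin 1 and was the most abundant of the group, was at 112, 105 and 106 CPM in KO and 108, 103 and 102 in WT, with overlapping genotypes. Pik3r4, the regulatory subunit VPS15, was at 68.4, 74.4 and 69.2 CPM in KO and 74.5, 75.1 and 76.9 in WT. Its KO libraries were all below its WT libraries, though KO replicate B came close to WT replicate A, and its log2 fold change of -0.10 had an unadjusted p of 0.0398 and an adjusted p of 0.122 in edgeR's test. Without KO replicate B that adjusted p was 0.0411. Pik3c3, the lipid kinase itself, had a log2 fold change of -0.06, and Uvrag, the subunit of the endosomal form of the complex, one of 0.08 without overlap (edgeR adjusted p 0.153). Atg14, the subunit that directs the kinase to autophagosome formation, and Ambra1, a Beclin 1 partner, were both at -0.04.

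Among the 7 genes of membrane supply, Vmp1 was higher in KO. VMP1 is a membrane protein of the endoplasmic reticulum needed for autophagosome formation, and its gene was at 56.7, 57.7 and 55.7 CPM in KO and 52.2, 50.9 and 53.5 in WT. The groups did not overlap, with a log2 fold change of 0.12 ± 0.04 (SE), a fold of 1.09 and an adjusted p of 0.0469 in edgeR's test. Leaving out any single library ended that call (edgeR adjusted p 0.0576 to 0.172). The lipid transfer genes Atg2a and Atg2b had log2 fold changes of -0.01 and -0.01. Atg9a, the scramblase of the vesicles that seed the membrane, had 0.03, and the PI3P-binding genes Wipi1, Wipi2 and Wdr45 had -0.02, 0.01 and 0.07. Wdr45 was the least precise of the group, with 95% limits of -0.13 and 0.27. RSEM assigned 2.26 times as many reads to Wdr45 and 1.80 times as many to Atg9a as the gene counts did, so the level of both differs between the deposited measures. The summed TPM of the group was 7.002% higher in KO, without overlap, while its summed CPM was 1.08% higher.

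None of the 7 conjugation genes was called by edgeR or DESeq2, and 0 had an unadjusted p below 0.05. Atg3, the E2-like enzyme that joins ATG8 to lipid and the most abundant of these, was at 60.5, 64.8 and 61.1 CPM in KO and 63.6, 65.5 and 62.2 in WT, with overlap. Atg7, the E1-like enzyme of both conjugation systems, had the lowest log2 fold change of the group at -0.09 (edgeR adjusted p 0.275), and Atg12, the ubiquitin-like protein joined to ATG5, the highest at 0.06 (0.377). Atg5, Atg10, which encodes the E2-like enzyme for ATG12, Atg16l1, which places the complex on the membrane, and its relative Atg16l2 lay between them, at -0.02, -0.08, 0.02 and -0.04. The summed TPM of the 7 was 191 ± 2.94 in KO and 191 ± 0.861 in WT (SD, n = 3).

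The 4 ATG4 proteases, which trim new ATG8 proteins and release them from lipid, also had no called gene by either tool and 0 at an unadjusted p below 0.05. Atg4b, the most abundant, was at 56.4, 55.3 and 55.5 CPM in KO and 57.0, 56.8 and 61.5 in WT. All 3 KO libraries were below all WT libraries, but WT replicate C stood well above the other two, and the adjusted p was 0.287 in edgeR's test. Atg4a, Atg4c and Atg4d, each less abundant by TPM, had log2 fold changes of 0.05, -0.04 and 0.12 with overlapping libraries.

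In the ATG8 family all 3 GABARAP genes were lower in KO, and neither LC3 gene was called. Gabarapl1 was at 79.2, 77.3 and 80.7 CPM in KO and 97.7, 96.6 and 98.5 in WT. The libraries of each genotype lay within a narrow band far from the other, and the log2 fold change was -0.30 ± 0.04 (SE), 1.23-fold lower, with an adjusted p of 9.2e-05 in edgeR's test. Gabarap, which gives the subfamily its name, was at 197, 199 and 199 CPM in KO and 225, 224 and 225 in WT. It fell by 0.18 on the log2 scale (SE 0.03), 1.13-fold lower, with an adjusted p of 0.0016 in edgeR's test. Calls for both held under all 16 alternative analyses.

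Gabarapl2, which encodes GATE-16, was at 37.9, 38.4 and 36.7 CPM in KO and 40.4, 41.3 and 43.5 in WT. It did not overlap between genotypes in CPM, but did in TPM (102 to 115 in KO, 110 to 113 in WT), and it fell by 0.15 on the log2 scale (SE 0.05), 1.11-fold lower, with an adjusted p of 0.034 in edgeR's test. That call was less firm, since the adjusted p was 0.058 without KO replicate A, 0.0902 without KO replicate C, 0.0758 without WT replicate B and 0.151 without WT replicate C. RSEM assigned 1.56 times as many reads to Gabarapl2, which has a pseudogene copy in the genome, as the gene counts did. With RSEM's expected counts its log2 fold change was -0.09 and the edgeR adjusted p 0.126, so its change is uncertain.

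Map1lc3a and Map1lc3b, given here to complete the family although the rule for naming genes did not pick them, encode the LC3 proteins whose lipid-bound form is the usual marker of autophagosomes. Map1lc3b was at 333, 337 and 341 CPM in KO and 333, 332 and 334 in WT. The libraries overlapped, and the 95% interval of the log2 fold change, -0.05 to 0.08, leaves room for changes of a few percent in either direction. Map1lc3a was at 75.0, 72.9 and 75.2 CPM in KO and 77.3, 75.0 and 76.8 in WT, with a log2 fold change of -0.04 (95% limits -0.12 and 0.04).

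The make-up of the family RNA, which follows from the levels of these genes in the same libraries, differed between genotypes. The GABARAP subfamily was 53.5%, 53.8% and 53.0% of summed ATG8 TPM in KO and 55.9%, 56.6% and 56.4% in WT. The mean was 53.4% ± 0.398 in KO and 56.3% ± 0.378 in WT (SD, n = 3), a difference of -2.86 percentage points, and no KO library reached a WT library. Map1lc3b was 29.8% of the family in WT and 31.9% in KO, Map1lc3a 13.9% and 14.7%, Gabarap 37.6% and 35.8%, and Gabarapl1 8.78% and 7.71%. In TPM, Gabarapl2 did not share the lower share of its subfamily, at 9.85% in WT and 9.95% in KO. Its libraries overlapped there (9.81% to 9.92% in WT, 9.45% to 10.6% in KO). RSEM, the source of TPM, assigned Gabarapl2 1.56 times as many reads as the gene counts did. By CPM, from the gene counts, Gabarapl2 was lower in KO without overlap. Since the shares add up to the whole family, a lower share of one gene raises the others, and no test is given for a sum over chosen genes. These are RNA levels: the amount of lipid-bound ATG8 protein, a usual measure of autophagy, was not assayed.

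**Figure D2:**
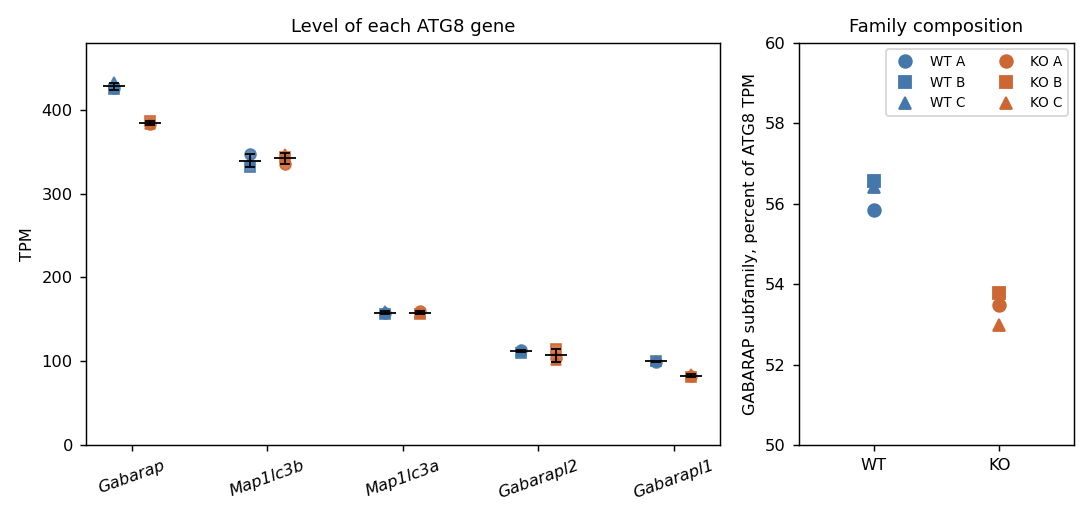
Left, TPM of each ATG8 gene by library (points) with the mean and SD of 3 libraries (lines); right, the GABARAP subfamily as a percent of summed ATG8 TPM, on an axis from 50 to 60. Gabarap and Gabarapl1 separate by genotype, Map1lc3a, Map1lc3b and Gabarapl2 overlap in TPM, and the 3 KO shares (53.0% to 53.8%) sit below the 3 WT shares (55.9% to 56.6%).

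Among the 5 cargo receptors, 3 were lower in KO and 2 were not called. Optn, which encodes optineurin, a receptor for ubiquitin-tagged mitochondria and bacteria, had the largest fall of all 41 genes. It was at 31.3, 31.5 and 28.9 CPM in KO and 42.8, 41.7 and 39.7 in WT. Every KO library was below every WT library, and the log2 fold change was -0.43 ± 0.05 (SE), 1.35-fold lower, with an adjusted p of 1.1e-04 in edgeR's test. Calcoco1, a receptor for the endoplasmic reticulum, was at 223, 217 and 230 CPM in KO and 270, 286 and 308 in WT. The WT libraries were spread more widely than the KO libraries without reaching them, and the log2 fold change was -0.37 ± 0.05 (SE), 1.29-fold lower, with an adjusted p of 1.7e-04 in edgeR's test. Both calls held under all 16 alternative analyses.

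Sqstm1, which encodes p62, the receptor that gathers ubiquitin-tagged proteins into bodies, was at 353, 371 and 375 CPM in KO and 395, 401 and 400 in WT. KO replicate A was the lowest of the 6, and no KO library reached the WT libraries. The log2 fold change was -0.12 ± 0.04 (SE), 1.09-fold lower, with an adjusted p of 0.025 in edgeR's test. The adjusted p was 0.0741 without KO replicate A, 0.056 without WT replicate A, 0.0736 without WT replicate B and 0.0796 without WT replicate C, so that call rested on having all of these libraries. Tax1bp1, another receptor for ubiquitin-tagged cargo, was at 309, 321 and 315 CPM in KO and 338, 322 and 330 in WT, just without overlap, and was not called (log2 fold change -0.07, edgeR adjusted p 0.185). Nbr1, a partner of p62, had a log2 fold change of -0.01 with overlap. The summed receptor TPM was 824 ± 26.6 in KO and 892 ± 6.43 in WT (SD, n = 3), a difference of -7.62%.

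Of the 2 tethers, Tecpr1 was lower in KO. TECPR1 binds the ATG12 to ATG5 conjugate and joins autophagosomes to lysosomes. Its gene was at 83.2, 80.5 and 81.1 CPM in KO and 91.9, 94.2 and 94.1 in WT. The genotypes were apart in all libraries, and the log2 fold change was -0.19 ± 0.04 (SE), 1.14-fold lower, with an adjusted p of 0.0018 in edgeR's test. On log2 TPM, limma gave adjusted p of 0.155 and 0.150 with pseudocounts of 1 and 0.1, which ended that call. Epg5, a tether that acts with RAB7 on late endosomes, had a log2 fold change of -0.09 with overlap (edgeR adjusted p 0.199, and 0.0353 without KO replicate C).

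**Figure D3:**
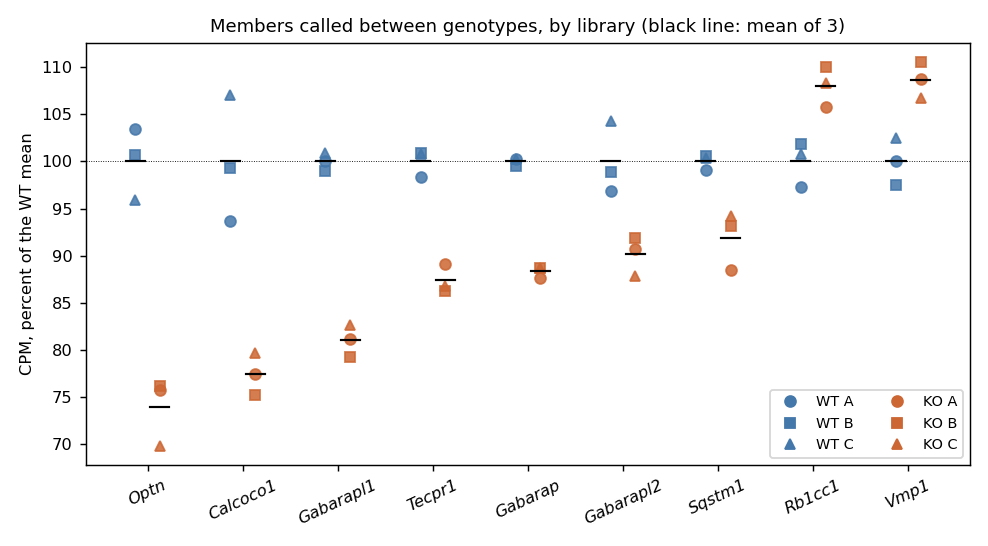
CPM of the 9 called autophagy genes in each library (y axis, as percent of the gene's WT mean; the axis does not start at 0), with black lines at the mean of 3 libraries. KO libraries of the 7 lower genes lie below all WT libraries of that gene, and those of Rb1cc1 and Vmp1 lie above.

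Genes that act before, beside or after these 41 were taken as 7 further lists of 125 genes, of which 123 were tested (Tfec and Calcoco2 were not). Of the 123, 25 were lower (20.3%) and 5 higher (4.07%), against 10.7% and 12.3% of all genes tested. Within the range of mean CPM of the 41 genes lay 110 of the 123, of which 20.9% were lower and 4.55% higher, against 16.9% and 11.2% of all genes in that range. Over all the further lists, 16 genes were lower and 3 higher without WT replicate C. Without WT replicates A and B in turn, the number higher over these lists was 2. The median log2 fold change of the 123 was -0.05. In the lists of receptors and related genes, fusion and the lysosomal membrane every call was lower, while the lists of signalling and regulation held calls in both directions. Of the 30 calls, 15 held whichever single library was left out, among them those of Castor1, Rragd, Lamtor4, Bnip3, Bnip3l, Tex264, Fkbp8, Ykt6, Rab7 and Atp6v0a1. Under all 16 alternative analyses 11 held, which were those just named and that of Atp6v0d1. The calls of Pink1, Vps11, Chmp2a and Atp6v1b2 held with each library left out but were lost in both limma analyses of log2 TPM. Whether the lists differ from each other was not tested.

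A list of organelle receptors, other selective receptors and related genes, outside the 41, had 7 of 21 lower (33.3%). The share lower was 10.7% of all genes tested and 16.9% of genes of similar abundance. None of the list was higher by edgeR, by DESeq2 or at an unadjusted p below 0.05. Bnip3l, which encodes the mitophagy receptor NIX, was at 205, 186 and 183 CPM in KO and 242, 248 and 257 in WT, 1.30-fold lower with an edgeR adjusted p of 1.1e-04. Its relative Bnip3 was at 33.4, 31.0 and 31.4 CPM in KO and 39.7, 39.4 and 37.5 in WT, 1.22-fold lower (edgeR adjusted p 0.0014). Neither gene overlapped between genotypes. Tex264, a receptor for the endoplasmic reticulum, was 1.14-fold lower and Fkbp8, on the outer mitochondrial membrane, 1.12-fold lower. The others lower were Pink1, Ncoa4 and Tollip, by 1.09-fold to 1.12-fold, and the calls of Ncoa4 and Tollip each held in 2 of the 6 fits with a library left out.

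Genes for fusion with the lysosome had 5 of 23 lower (21.7%), against 10.7% of all genes tested and 16.9% of genes of similar abundance. None was higher by either tool or at an unadjusted p below 0.05. The lower genes included Ykt6, a SNARE of the autophagosome, 1.13-fold lower, and Rab7, the small GTPase of late endosomes, 1.11-fold lower. The others were the HOPS subunits Vps11 and Vps41 and the ESCRT-III subunit Chmp2a, which each fell by 0.14 on the log2 scale. Genes of the lysosomal membrane had 5 of 17 lower (29.4%), against the same 10.7% and 16.9%. None was higher by either tool, with 2 higher at an unadjusted p below 0.05. Atp6v0a1, a subunit of the proton pump, was at 105, 108 and 103 CPM in KO and 126, 131 and 126 in WT, 1.22-fold lower with an edgeR adjusted p of 1.7e-04. The pump subunits Atp6v0d1 and Atp6v1b2 were each 1.13-fold lower, and Atp6v1h and the membrane protein gene Lamp2 each 1.11-fold. Leaving out WT replicate B or WT replicate C left 3 lower genes in the lysosomal membrane list, without Lamp2 and Atp6v1h. The Atp6v1h call was also lost without KO replicate B or KO replicate C, and the Vps41 call without WT replicate A or WT replicate C.

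Signalling upstream of the ULK complex gave calls in both directions. In the mTORC1 list, the kinase complex that holds autophagy off when amino acids are plentiful, 5 of 25 were lower (20%) and 2 higher (8%). Of genes of similar abundance 16.9% were lower and 11.2% higher, and of all genes tested 10.7% and 12.3%. Castor1, the arginine sensor, was at 59.5, 58.9 and 59.6 CPM in KO and 79.1, 79.5 and 76.0 in WT, 1.32-fold lower (edgeR adjusted p 2.1e-05). Rragd, a Rag GTPase that brings mTORC1 to the lysosome, was at 69.9, 57.2 and 62.7 CPM in KO and 51.3, 45.7 and 46.9 in WT, 1.32-fold higher (edgeR adjusted p 0.0012). Both genes separated the genotypes without overlap. Rptor, the subunit that defines mTORC1, was 1.12-fold lower, and Lamtor4, of the Ragulator complex, 1.13-fold lower. The remaining calls of the list were Deptor, higher, and Sesn1 and Sesn3, lower. They held in 3, 3 and 1 of the 6 fits with a library left out, and limma on log2 TPM ended each of them. In the AMPK list, the beta subunit gene Prkab1 was 1.14-fold higher, the gamma subunit gene Prkag1 fell by 0.14 on the log2 scale, and the other 9 of 11 were not called. Among 10 regulators of transcription, Flcn, which acts on the Rag GTPases, was 1.09-fold higher and Mitf, of the family of TFEB, 1.33-fold lower. The Flcn call was lost with DESeq2 (adjusted p 0.0577) and, in edgeR, without KO replicate C (0.114), WT replicate A (0.0942), WT replicate B (0.0546) or WT replicate C (0.158), and the Mitf call without WT replicate B (0.0604). Of 16 other early factors, Sh3glb1, a partner of UVRAG, was 1.09-fold higher and Bcl2, which binds Beclin 1, 1.11-fold lower. The edgeR adjusted p of Bcl2 was 0.0518 without KO replicate A, 0.083 without WT replicate B and 0.0639 without WT replicate C. That of Sh3glb1 was 0.0784 without KO replicate A, 0.0813 without KO replicate B, 0.0967 without WT replicate B and 0.117 without WT replicate C. The edgeR call of Prkag1 was lost without KO replicate B (adjusted p 0.0681), WT replicate B (0.0911) or WT replicate C (0.0696), that of Prkab1 without WT replicate A (0.0527) and that of Rptor without WT replicate C (0.0609).

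**Figure D4:**
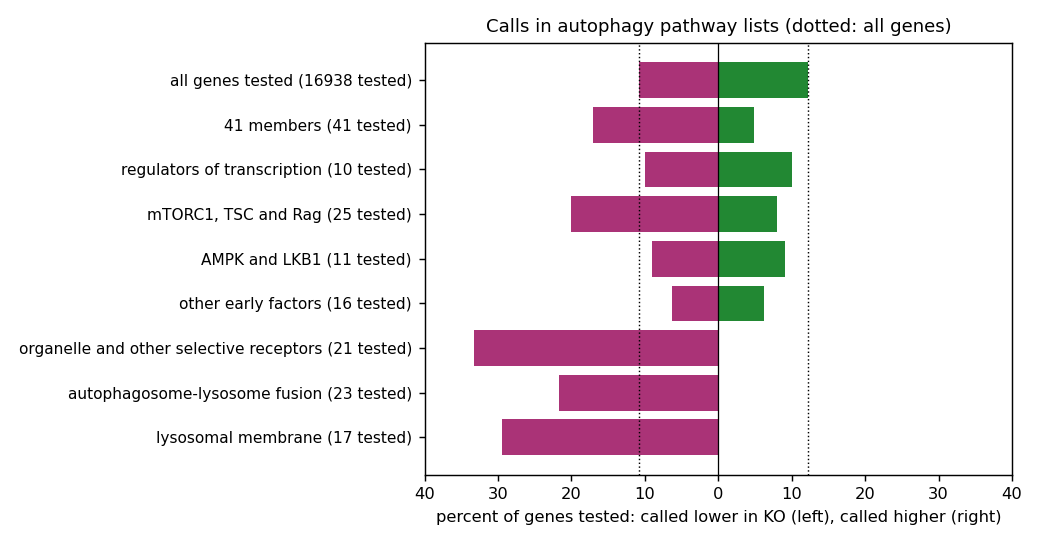
Percent of genes tested that were called lower (bars to the left) or higher (bars to the right) in KO, for all genes, the 41 autophagy genes and 7 further lists, with dotted lines at the values for all genes (10.7% and 12.3%). Lists of other receptors, fusion and the lysosomal membrane have bars to the left only, and each list is small (10 to 25 genes tested). Not drawn are the values for genes within the range of mean CPM of the 41, 16.9% lower and 11.2% higher.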

How the data were processed

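PolyA RNA of 6 libraries was compared, 3 per genotype. Per the submitters' processing notes, bcl2fastq 2.17, STAR 2.5.1b and RSEM 1.2.28 were used. The notes name build GRCh38, a human build, while the identifiers are mouse Ensembl identifiers, so the authors' build is uncertain. Symbols and positions came from GENCODE M21 (GRCm38), which matched 50376 of 50600 identifiers.

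The authors deposited raw counts per gene and strand, and the column holding 95.5% to 95.7% of the gene counts of both strands was used. Reads assigned to no gene (18.4% to 19.8%) were left out of library sizes. The deposited RSEM files hold expected counts (rounded here), TPM, and a posterior SD of the count. The authors' TPM served for levels between genes.

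Counts were normalized by TMM (factors 0.994 to 1.012), filtered with filterByExpr and tested with edgeR 4.0.16 (quasi-likelihood, no block) in R 4.3.3. The script was tested on simulated data. The SE comes from the F statistic. Alternatives used DESeq2 1.42.0, limma 3.58.1 on log2 TPM, other filters, counts and scalings, and each library left out. The common biological coefficient of variation was 0.0538, and replicates differed beyond counting error.

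The 41 genes and all lists were chosen with earlier results of these data known. Values in every library are given for Psmb11, called genes, genes with an unadjusted p below 0.05 and the highest TPM of each role, and up to 4 called genes of each further list are named. Further called genes were named, after their values were seen, to complete a list's count.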

Additional observations from a re-analysis of the deposited data

How the results depend on the processing

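The calls of Gabarap, Gabarapl1, Optn and Calcoco1 held under all 16 alternatives, Tecpr1 under 14, Sqstm1 under 10, Gabarapl2 under 6, Vmp1 under 4 and Rb1cc1 under 3. None of these 9 genes changed direction. The 2 higher calls became 0 with DESeq2, no low count filter, unstranded counts, limma on TPM at either pseudocount, or any single library left out, and 1 with RSEM expected counts. The 7 lower calls became 4 in both limma analyses of TPM and ranged from 5 to 8 with a library left out. In the limma analyses the median log2 fold change of the 41 genes was 0.01349 and 0.01353, against -0.02358 in the main analysis. The median over all genes tested rose too, to 0.02397 and 0.02792 from -0.0008, so that of the 41 stayed below it. In these analyses all genes gave 1169 and 1119 higher and 758 and 738 lower. The cause was not tested. With a library left out, all genes lower ranged from 1152 to 1615, further pathway genes higher from 2 to 5 and lower from 16 to 25. Fewer libraries leave fewer degrees of freedom. A robust quasi-likelihood fit, chosen after the data were seen, gave 2113 higher and 1876 lower over all genes and the same 2 and 7.

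Summed in CPM in place of TPM, the change from WT was -4.79% for all 41 genes, 2.447% for the ULK complex, -0.9563% for the PI3 kinase, 1.078% for membrane supply, -1.103% for conjugation, -0.5917% for the ATG4 proteases, -9.901% for receptors and -9.484% for tethers. The signs for PI3 kinase, conjugation and the ATG4 proteases differ from those by TPM (0.504%, 0.0611% and 3.55%), and the TPM difference of the ATG4 proteases was -0.687% without KO replicate A. The GABARAP share differed by -3.668 percentage points in CPM.

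The replicate letters gave no sign of pairing, since same-letter KO and WT deviations correlated at -0.016, 0.082 and -0.034. Those of different letters correlated at -0.067 to 0.084. The check cannot exclude pairing, because a weak shared effect could leave correlations this low. A fit with the replicate block gave 0 higher and 6 lower autophagy genes, and 2063 higher and 1744 lower over all genes.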
